A study of Mus musculus with 217 samples.

Results

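The Id genes Id1, Id2, Id3 and Id4 encode small inhibitors of basic helix-loop-helix (bHLH) transcription factors. They were followed in RNA-seq libraries of 3 parts of the mouse striatum: the dorsolateral striatum (DLS), the dorsomedial striatum (DMS) and the nucleus accumbens (NAc). The members were taken by symbol, and all 4 of 4 were found in each table, among 11394 genes in DLS, 12101 in DMS and 11867 in NAc. Id4 was chosen by its measured rhythm in earlier results of these data, present in DLS and not in NAc, so its daily course in those regions is given as a description with no test. All animals were C57BL/6J mice, a common inbred laboratory strain, with no genetic or drug treatment, aged about 10 weeks, kept in 12 h of light and 12 h of dark with free access to food and water. Males and females were killed at 6 times, named ZT (Zeitgeber time) by the hours since the light came on: ZT2, ZT6 and ZT10 in the light, then ZT14, ZT18 and ZT22 in the dark. Each library came from 1 animal and 1 region, taken as bilateral punches of 1 mm, with 35 male and 35 female libraries in DLS, 36 and 34 in DMS, and 40 and 37 in NAc.

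Id proteins carry the helix-loop-helix domain through which bHLH factors pair, but lack the basic stretch that touches DNA. They pair with the E proteins (Tcf3, Tcf4 and Tcf12), the common partners of tissue-specific bHLH factors, and keep them from binding DNA. Transcription of the Id genes is a classical response to bone morphogenetic proteins (BMPs) through the Smad factors, and in the adult brain Id genes are known from astrocytes, blood vessels and some neurons. Several clock factors, among them Arntl, Clock, Npas2, Bhlhe40 and Bhlhe41, also belong to the bHLH family.

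By the GENCODE annotation of GRCm38, each member is a protein-coding gene. Id1 (ENSMUSG00000042745) lies on the plus strand at chr2:152736251-152737410, Id2 (ENSMUSG00000020644) on the minus strand at chr12:25093799-25097140, Id3 (ENSMUSG00000007872) on the plus strand at chr4:136143497-136145755, and Id4 (ENSMUSG00000021379) on the plus strand at chr13:48261228-48266026. Values are summed over all exons of a gene, UTRs included, so isoforms are not told apart. On the opposite strand, Id4 overlaps the antisense gene A330033J07Rik over 1396 bases and the lincRNA Gm49291 over 1364 bases, and neither is listed in any of the tables. Whether reads were counted by strand is not stated in the sources used here, so reads of these partners could not be told apart from those of Id4. The promoters of Id2, Id3 and Id4 are shown because these genes are set side by side throughout, with differing daily courses. They are taken from RefSeq (GRCm38.p6), from 250 bases before to 50 after the start: 3 of the 4 members were matched, at chr12:25096043-25096342 (minus strand), chr4:136143572-136143871 (plus strand) and chr13:48260866-48261165 (plus strand). Capitals mark, on either strand, the BMP-responsive GC-rich box GGCGCC, the CCAAT box and the GC box GGGCGG.
Id2: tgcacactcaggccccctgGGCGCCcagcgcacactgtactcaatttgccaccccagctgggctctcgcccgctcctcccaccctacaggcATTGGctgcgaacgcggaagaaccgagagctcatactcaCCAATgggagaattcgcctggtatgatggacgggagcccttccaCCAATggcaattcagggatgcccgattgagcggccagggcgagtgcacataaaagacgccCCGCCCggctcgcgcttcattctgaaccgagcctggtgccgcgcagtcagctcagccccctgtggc
Id3: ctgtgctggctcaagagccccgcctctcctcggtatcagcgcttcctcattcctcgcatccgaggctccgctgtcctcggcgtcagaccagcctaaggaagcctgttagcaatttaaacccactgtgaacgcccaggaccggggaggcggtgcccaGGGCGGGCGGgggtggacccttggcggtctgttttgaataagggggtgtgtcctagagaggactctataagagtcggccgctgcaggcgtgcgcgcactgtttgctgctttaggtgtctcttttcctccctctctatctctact
Id4: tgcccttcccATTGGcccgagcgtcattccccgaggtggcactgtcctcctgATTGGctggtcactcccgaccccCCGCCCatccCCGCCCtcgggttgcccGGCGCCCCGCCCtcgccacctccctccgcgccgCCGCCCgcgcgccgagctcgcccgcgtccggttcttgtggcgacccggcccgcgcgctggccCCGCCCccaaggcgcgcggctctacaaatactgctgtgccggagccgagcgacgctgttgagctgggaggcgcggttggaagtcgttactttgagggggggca
GGCGCC was found 1 time each in the Id2 and Id4 windows, and 11.9% of all 32851 promoter windows of the same length hold it. CCAAT was found 3 times in Id2 and 2 times in Id4 (37.4% of all windows hold it). GGGCGG was found 1 time in Id2, 2 times in Id3, where the copies overlap, and 5 times in Id4 (35.7% of all windows). In Id4, GGCGCC stands directly beside a GC box. The Smad box CAGAC was found 2 times in Id3 (49.6% of all windows) and not in these windows of Id2 and Id4. The E-box CACGTG, the ROR half-site AGGTCA and the D-box TTATGTAA were in none of these windows. A match is a stretch of letters, not a shown binding site. The windows were rich in G and C, at 73.3% in Id4, 63.3% in Id2 and 60% in Id3, against a median of 52.7% over all promoters.

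The deposited values are log2 of counts normalised with DESeq2, and each region was normalised on its own, so levels are not tested between regions. Outside the 3 most abundant genes of a library, 5.51 to 35.6 M reads were recovered per DLS library and 14.6 to 40.1 M per DMS library, whereas the depth of NAc libraries is unknown. Mitochondrial rRNA held 13.2 to 53% of normalised counts in DLS, 19 to 52.6% in DMS and 22.7 to 50.6% in NAc. The DMS libraries form a high class (33 libraries, 35.3 to 52.6%) and a low class (37 libraries, 19 to 29.9%), unevenly spread over the day: by ZT2, ZT6, ZT10, ZT14, ZT18 and ZT22 the high class held 3, 4, 7, 7, 10 and 2 of the 11 or 12 libraries of that time. The class was therefore a term in every main DMS fit. The class nearly followed the animal numbers of the labels. Females numbered up to 29 were all low and those from 31 on all high. Males from 31 on were all high, as were some of lower number. Class and number range can therefore hardly be told apart. In 1 DLS library (male, ZT6), 68.4% of normalised counts came from the rRNA-like genes Gm42418 and Gm26917.

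Id4 had the highest level of the family per length of exon in every region, and Id1 and Id3 the lowest. Per kilobase of exon, the median normalised count of Id4 was 723 in DLS, 1519 in DMS and 1337 in NAc, above 89.1, 94.6 and 94.2% of the genes of those tables. Id2 came next, at 469, 445 and 442 normalised counts per kilobase in DLS, DMS and NAc. Id1 and Id3 lay near the middle of all genes, with 134 and 133 normalised counts per kilobase in DLS, 175 and 164 in DMS, and 129 and 152 in NAc. In recovered reads, Id1 had 23 to 262 per DLS library and 110 to 349 per DMS library, and Id3 had 16 to 433 and 178 to 539. Id2 had 181 to 1693 and 701 to 1640, and Id4 had 328 to 4805 and 3320 to 9641. The rarer members therefore carry more counting error. Across all libraries of a region, the SD of the log2 level was 0.32 for Id1, 0.23 for Id2, 0.35 for Id3 and 0.31 for Id4 in DLS. It was 0.36, 0.33, 0.33 and 0.19 in DMS and 0.47, 0.36, 0.45 and 0.28 in NAc, in the same order of genes.

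Over the day, Id3 rose towards the early dark in DLS and DMS, Id1 did so in DLS, and Id4 rose towards the end of the light in DMS. A 24 h cosine was fitted to each gene in limma, with sex as a term, and a rhythm was called at an adjusted p (Benjamini-Hochberg over all genes of the table) below 0.05. Id1 and Id3 passed among the 3 members tested in DLS, where 21% of all genes passed. In DMS, Id3 and Id4 passed among 4 tested members, where 25.2% of all genes passed. None of the 3 members tested in NAc passed, where 2.56% of all genes did. In all, 4 of 10 tested courses passed, and the same 4 had an unadjusted p below 0.05. Amplitude means how far the fitted peak stands above the fitted mean, in log2 units, and the fold compares peak with trough. These are bulk samples, so fewer cells of a type and less RNA per cell cannot be told apart.

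**Figure D1:**
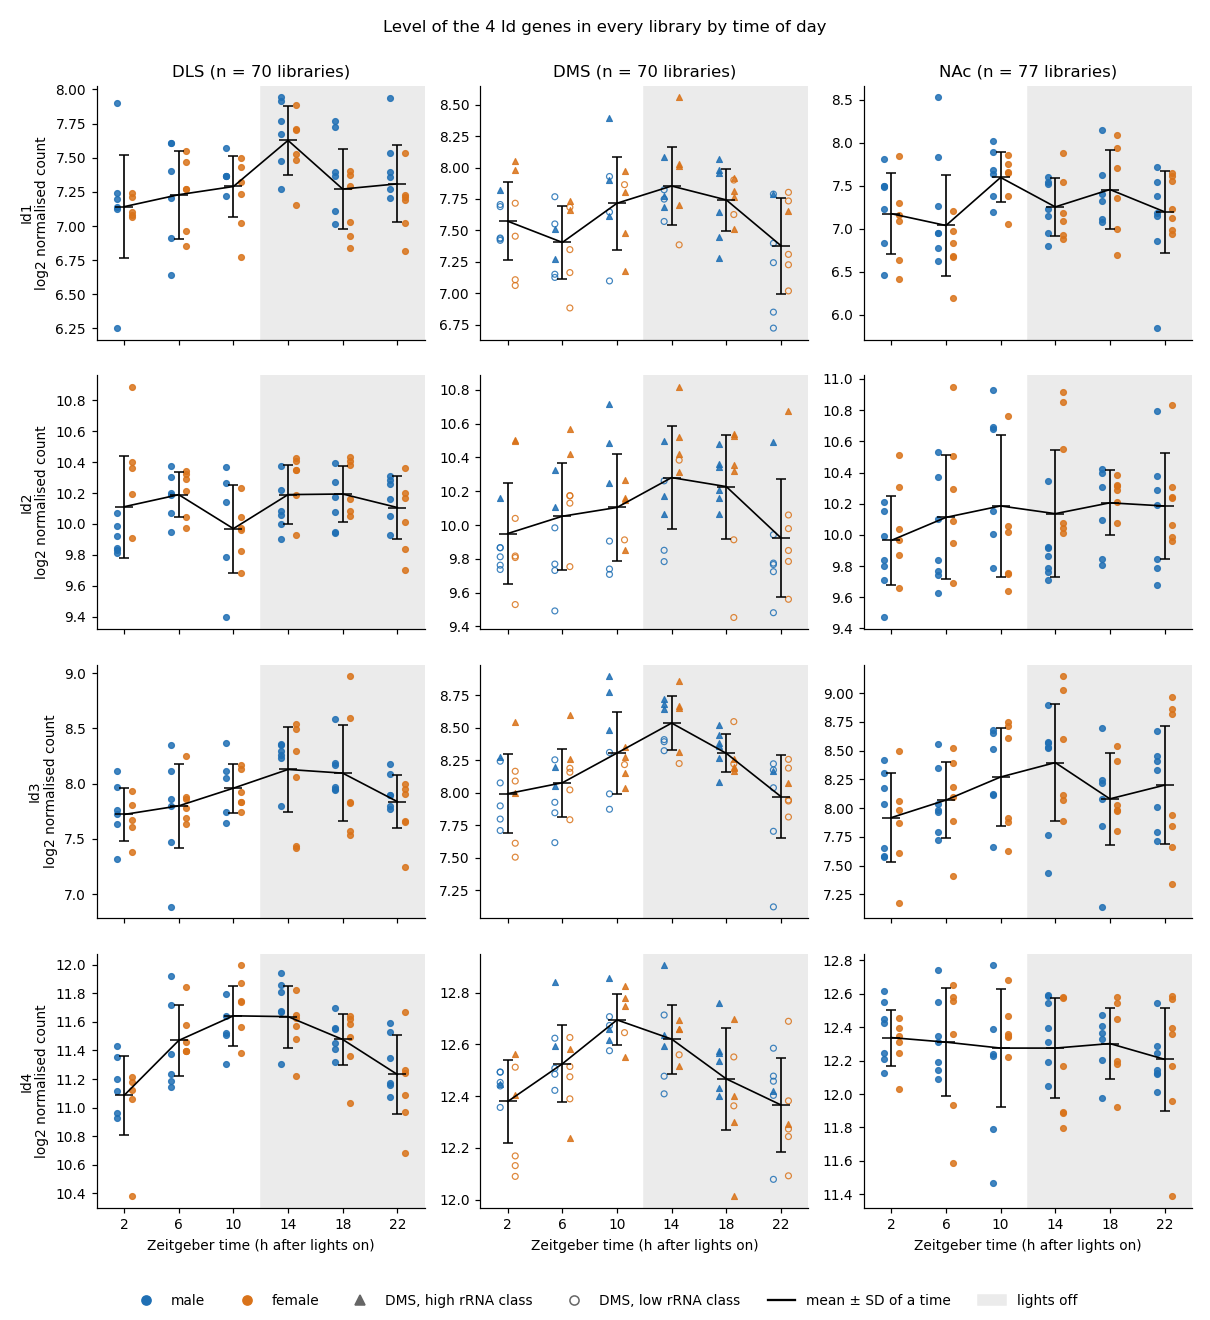
Log2 normalised count of each Id gene (vertical axes) against Zeitgeber time in hours (horizontal axes), 1 point per library, in DLS, DMS and NAc, with the mean ± SD of each time in black. Time means of Id3 were highest at ZT14 in all 3 regions, those of Id4 at ZT10 in DLS and DMS and at ZT2 in NAc, and triangles (high rRNA class) sit above open circles (low class) most clearly for Id2 in DMS.

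Id3 had the largest fitted amplitude of the members open to a test. In DLS the lowest, median and highest log2 levels of Id3 were 7.32, 7.73 and 8.12 at ZT2, 6.89, 7.83 and 8.35 at ZT6, and 7.64, 7.92 and 8.37 at ZT10. In the dark they were 7.41, 8.28 and 8.54 at ZT14, 7.54, 7.96 and 8.97 at ZT18, and 7.25, 7.90 and 8.18 at ZT22. The ranges of all times overlapped, with the highest median at ZT14 and the lowest at ZT2. The fitted amplitude in DLS was 0.21 ± 0.05 (SE, n = 70), a fold of 1.34 with the peak at 14.9 ± 0.96 h (adjusted p = 0.00718, limma). With time as 6 levels in place of a cosine, Id3 in DLS had an adjusted p of 0.0596 (limma). By that test 1 of 3 members passed in DLS (Id1, 0.0219), 2 of 4 in DMS (Id3, 0.00426, and Id4, 0.000349) and 0 of 3 in NAc, where 21.1, 32.4 and 1.54% of all genes passed.

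In DMS the log2 levels of Id3 were 7.50, 8.04 and 8.55 (lowest, median and highest) at ZT2, 7.62, 8.11 and 8.60 at ZT6, and 7.87, 8.27 and 8.90 at ZT10. They were 8.22, 8.64 and 8.86 at ZT14, 8.09, 8.26 and 8.55 at ZT18, and 7.12, 8.06 and 8.26 at ZT22. As deposited, all ZT14 libraries lay above the ZT22 median, and the ranges of these times met only at their ends. With the rRNA class removed they overlapped more, with a lowest value of 8.19 at ZT14 and a highest of 8.37 at ZT22. The range of the time means was then 0.45, against 0.57 as deposited. The amplitude in DMS was 0.21 ± 0.05 (SE, n = 70), a fold of 1.33 with the peak at 13.3 ± 0.76 h (adjusted p = 0.00143, limma). Within the high rRNA class alone (n = 33) the amplitude was 0.22 and the adjusted p 0.0424 (limma, 15% of all genes passed). Within the low class alone (n = 37) it was 0.23 with an adjusted p of 0.0525 (limma, 7.83% of all genes passed). With no class term the amplitude was 0.28 (adjusted p = 1.58e-05, limma), in a fit where 51.3% of all genes passed. In NAc the time means of Id3 were 7.92, 8.07, 8.27, 8.40, 8.08 and 8.20 from ZT2 to ZT22, with an amplitude of 0.17 ± 0.07 (SE, n = 77), a peak at 13.8 h and an adjusted p of 0.332 (limma).

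Id1, near Id3 in its level per length of exon and like it highest at ZT14 in DLS, passed there only just. In NAc their time means differed in order, with Id1 highest at ZT10 and Id3 at ZT14. Its log2 levels in DLS were 6.25, 7.14 and 7.90 (lowest, median and highest) at ZT2, 6.64, 7.27 and 7.61 at ZT6, and 6.78, 7.36 and 7.57 at ZT10. They were 7.16, 7.69 and 7.94 at ZT14, 6.84, 7.33 and 7.77 at ZT18, and 6.81, 7.25 and 7.94 at ZT22. ZT14 stood above the other times, which lay close together, and every range overlapped that of ZT14. The amplitude was 0.17 ± 0.05 (SE, n = 70), a fold of 1.27 with the peak at 14.3 ± 1.1 h (adjusted p = 0.03, limma). The call was lost when the mitochondrial rRNA share was a covariate (adjusted p = 0.0795, limma), with libraries scaled to an equal sum (0.0586), with the replicate number as a block (0.0507), and when any of 4 single libraries was left out (adjusted p up to 0.0673, without 1 male library of ZT2). In DMS, Id1 had an amplitude of 0.13 ± 0.06 (SE, n = 70), a peak at 13.9 h and an adjusted p of 0.207 (limma). Without the class term the DMS values were 0.21 and 0.00805 (limma). In NAc the amplitude was 0.16 ± 0.08 (SE, n = 77), the peak 14.2 h and the adjusted p 0.449 (limma). The fitted peaks of Id1 in the 3 regions thus lay within 1 h of each other, although its rhythm passed only in DLS.

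Id2 did not pass in any region. Its time means in DLS were 10.11, 10.19, 9.97, 10.19, 10.19 and 10.11 from ZT2 to ZT22, and its highest mean was only 0.22 above its lowest, less than the SD of 0.23 within a time. The amplitude was 0.04 ± 0.04 in DLS (SE, n = 70), 0.03 ± 0.04 in DMS (SE, n = 70) and 0.08 ± 0.06 in NAc (SE, n = 77). The adjusted p values were 0.724 in DLS, 0.811 in DMS and 0.709 in NAc (limma). In DMS the level of Id2 followed the rRNA class, which nearly coincides with the range of animal numbers, more than the time of day. High-class libraries had 9.85, 10.36 and 10.82 (lowest, median and highest) and low-class libraries 9.45, 9.81 and 10.38. With no class term Id2 had an amplitude of 0.17 and an adjusted p of 0.0151 (limma), so its call in DMS turned on this term. The other members were higher in the high class as well, with means of 7.79 and 7.44 for Id1, 8.38 and 8.02 for Id3, and 12.57 and 12.45 for Id4 in the high and the low class. The share of all genes higher in that class was not computed, so this is not read as particular to the Id genes.

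Id4 rose towards the end of the light in DMS, the region its choice did not use, although many DMS libraries came from the animals of the other regions. Its log2 levels in DMS were 12.09, 12.44 and 12.56 (lowest, median and highest) at ZT2, 12.24, 12.51 and 12.84 at ZT6, and 12.55, 12.67 and 12.86 at ZT10. They were 12.41, 12.64 and 12.91 at ZT14, 12.01, 12.49 and 12.76 at ZT18, and 12.08, 12.39 and 12.69 at ZT22. The ZT10 libraries were nearly all above those of ZT2, and the ranges met only at their ends. The amplitude was 0.15 ± 0.03 (SE, n = 70), a fold of 1.23 with the peak at 10.9 ± 0.65 h (adjusted p = 2.95e-05, limma). It passed within the high class alone (amplitude 0.18, adjusted p = 0.00522, limma) and within the low class alone (0.13, adjusted p = 0.0257, limma). Its residual SD of 0.15 was the smallest of the members and smaller than that of most genes of the DMS table (median 0.17).

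In DLS, described without a test, Id4 had log2 levels of 10.38, 11.12 and 11.43 (lowest, median and highest) at ZT2, 11.14, 11.40 and 11.92 at ZT6, and 11.30, 11.64 and 11.99 at ZT10. It had 11.22, 11.66 and 11.94 at ZT14, 11.03, 11.52 and 11.70 at ZT18, and 10.68, 11.21 and 11.67 at ZT22. ZT10 and ZT14 were about level at the top, and ZT2 and ZT22 at the bottom. The fitted amplitude was 0.28 ± 0.04 (SE, n = 70), a fold of 1.47 with the peak at 12.3 ± 0.53 h. In NAc, also described without a test, the medians of Id4 lay between 12.21 and 12.35 at all 6 times, with an amplitude of 0.03 ± 0.05 (SE, n = 77). The NAc libraries spread more widely within a time (SD 0.28) than those of DMS (0.16) or DLS (0.24).

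**Figure D2:**
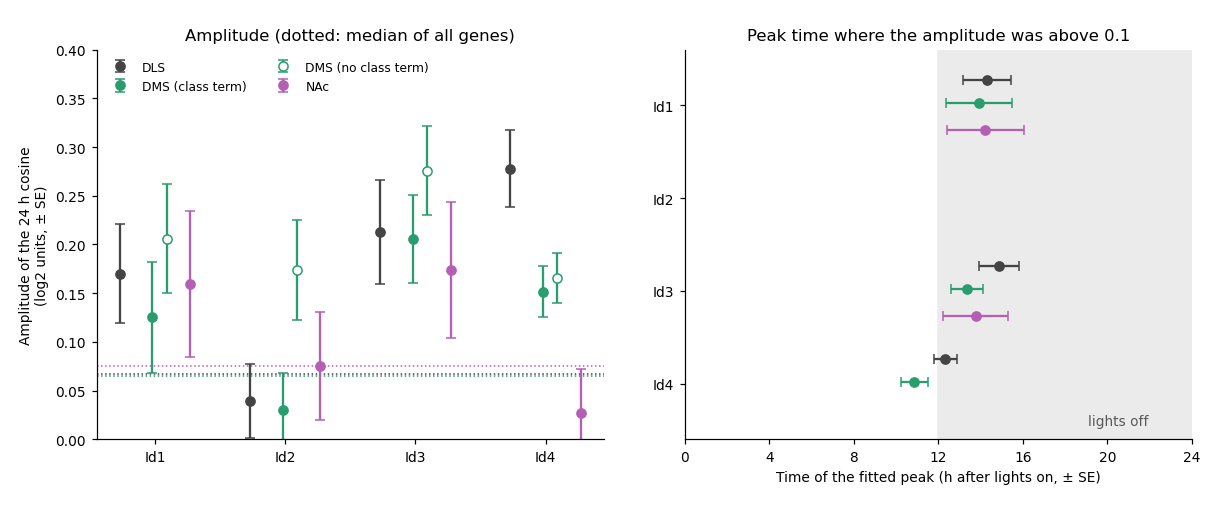
Left, amplitude of the 24 h cosine (log2 units, ± SE) of each Id gene in DLS, DMS and NAc, with open points for DMS fitted with no class term and dotted lines at the median of all genes (0.07 in each region). Right, time of the fitted peak (h after lights on, ± SE) where the amplitude was above 0.1: Id1 and Id3 peak between 13.3 and 14.9 h, and Id4 at 10.9 h in DMS and 12.3 h in DLS. The Id1 peaks in DMS and NAc and the Id3 peak in NAc come from fits that did not pass.

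The peaks of Id4 came before those of Id3 in both dorsal regions. The 95% interval of the peak was 11.3 to 13.4 h for Id4 and 13 to 16.8 h for Id3 in DLS, and 9.59 to 12.1 h and 11.9 to 14.8 h in DMS. The intervals overlapped at their ends, and the difference between the genes was not tested.

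Males and females did not differ in the level of any member past the threshold. None of 12 comparisons (4 members in 3 regions) passed in limma with time as 6 levels, and 2 of 12 had an unadjusted p below 0.05. Over all genes, 0.202% passed in DLS, 4.21% in DMS and 0.0758% in NAc. Id4 in DMS averaged 12.55 ± 0.16 in males (SD, n = 36) and 12.46 ± 0.22 in females (SD, n = 34), a difference of 0.08 ± 0.04 (SE; adjusted p = 0.173, limma). Id2 in DMS averaged 10.02 ± 0.31 in males (SD, n = 36) and 10.15 ± 0.35 in females (SD, n = 34), a fitted difference of -0.10 ± 0.05 (SE; adjusted p = 0.221, limma). The fitted difference of Id2 was below 0 in all 3 regions, with -0.09 ± 0.05 in DLS and -0.13 ± 0.08 in NAc (SE). The 95% intervals were -0.20 to 0.01 in DLS, -0.20 to -0.01 in DMS and -0.29 to 0.02 in NAc. Some of these libraries share animals, so the 3 regions are not independent. For Id1 in DLS the difference was 0.13 ± 0.07 (SE), with 7.38 ± 0.36 in males and 7.25 ± 0.27 in females (SD, n = 35 each; adjusted p = 0.506, limma).

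**Figure D3:**
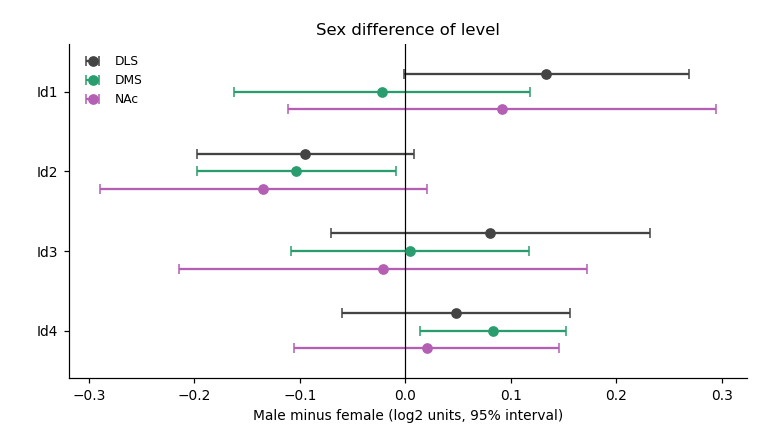
Male minus female difference of the log2 level (horizontal axis, points with 95% intervals) for each Id gene (vertical axis) in DLS, DMS and NAc. All Id2 points lie left of 0, and the intervals of Id2 and Id4 in DMS are the ones that leave out 0, before adjustment over all genes.

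The daily course did not differ between the sexes past the threshold for any member. The test of the difference gave adjusted p values of 0.67 to 0.991 over the 12 comparisons (limma), none had an unadjusted p below 0.05, and 0% of all genes passed in each region. Id4 in DLS had an amplitude of 0.24 in males, with the peak at 13.2 h, and 0.32 in females, with the peak at 11.7 h (adjusted p of the difference 0.67, limma). In DMS the amplitude of Id4 was 0.13 in males and 0.18 in females, with peaks at 10.7 h in males and 11.1 h in females. Id3 in DMS had 0.25 in males and 0.15 in females, with peaks at 13.1 h in males and 13.8 h in females. Id1 in DLS had 0.21 in males and 0.15 in females, with peaks at 15.3 h in males and 13 h in females.

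Between regions, the rhythms of Id1, Id2 and Id3 did not differ past the threshold when limma was fitted to all regions at once, blocked by animal. None of 9 comparisons passed (adjusted p 0.824 to 1, and none had an unadjusted p below 0.05). Over all genes, 0% passed for DLS minus DMS, 0.408% for DLS minus NAc and 0% for DMS minus NAc. The comparisons share libraries with each other. For Id3 the difference of amplitude was 0.01 ± 0.09 for DLS minus DMS, 0.04 ± 0.08 for DLS minus NAc and 0.03 ± 0.08 for DMS minus NAc (SE). Its 95% intervals reached from -0.16 to 0.18, from -0.11 to 0.20 and from -0.13 to 0.19, so differences as large as most of the fitted amplitude remain within the error. For Id1 the same differences were 0.05 ± 0.09, 0.01 ± 0.09 and -0.04 ± 0.09 (SE), likewise well inside their error. Id4, given as a description since its choice used DLS and NAc, had joint-fit amplitudes of 0.28 in DLS, 0.15 in DMS and 0.03 in NAc. The differences were 0.13 ± 0.06 for DLS minus DMS, 0.25 ± 0.05 for DLS minus NAc and 0.12 ± 0.06 for DMS minus NAc (SE). The same member in the same animal was not called as related between regions after sex, time and class were removed: of 12 correlations none passed. The highest were those of Id4 and Id3 between DLS and DMS over 51 animals. For Id4, r was 0.36 (p = 0.00905, adjusted p = 0.0603) and rho 0.25 (p = 0.0794), with r 0.24 without the 2 farthest animals. For Id3, r was 0.36 (p = 0.01, adjusted p = 0.0603) and rho 0.36 (p = 0.0101), with r 0.29 without the 2 farthest animals (permutation tests of 100000 resamples, two-sided).

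Across libraries of a region, Id1 and Id3 were correlated in the dorsal regions. Among the 6 pairs of members, in DLS, NAc and each DMS class, 6 of 24 correlations had an adjusted p below 0.05 and 11 an unadjusted p below 0.05 (permutation tests of 100000 resamples, two-sided). The share that would pass among pairs of all genes was not computed. For Id1 and Id3, r was 0.54 in DLS (n = 70, p = 2e-05, adjusted p = 0.00024), with rho 0.54 (p = 1e-05, the smallest the resamples can give) and r 0.50 without the 2 libraries farthest from the median of Id1. In the DMS high class r was 0.55 (n = 33, p = 0.00085, adjusted p = 0.0051), with rho 0.49 (p = 0.00443) and 0.45 without the 2 farthest. The DMS low class gave r 0.67 (n = 37, p = 1e-05, adjusted p = 0.00024), with rho 0.64 (p = 5e-05) and 0.56 without the 2 farthest. In NAc the r of this pair was 0.26 (n = 77, p = 0.0215, adjusted p = 0.056), with rho 0.29 (p = 0.0104, adjusted p = 0.0454) and 0.33 without the 2 farthest. With sex and the fitted rhythm removed, r was 0.45 in DLS, 0.63 in the DMS high class, 0.63 in the DMS low class and 0.21 in NAc. The difference between regions was not tested. By r with Id1, Id3 ranked 7 among 11393 other genes in DLS, 16 among 12100 in the DMS high class, 2 among 12100 in the DMS low class and 1165 among 11866 in NAc.

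**Figure D4:**
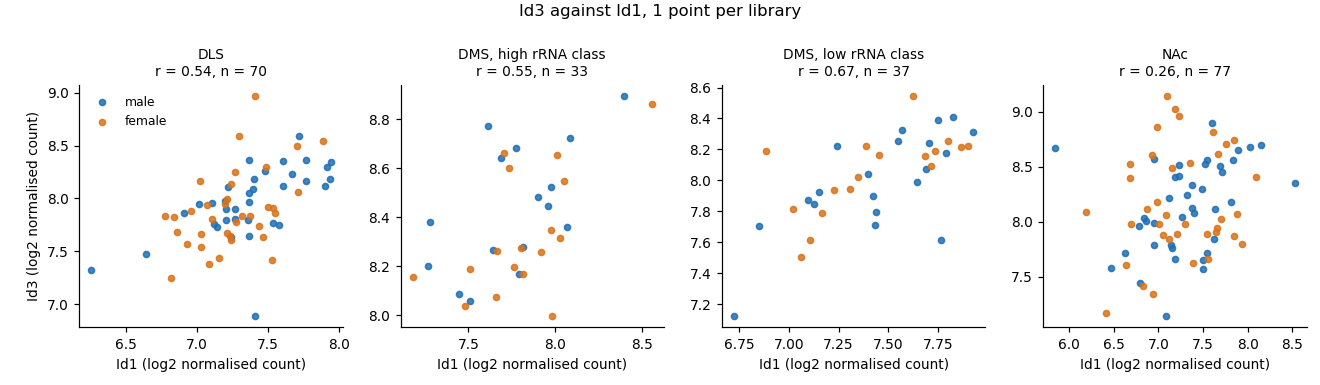
Log2 normalised count of Id3 (vertical axes) against that of Id1 (horizontal axes), 1 point per library, in DLS, both DMS classes and NAc. The points follow a rising band in DLS and in both DMS classes (r 0.54 to 0.67) and a wider cloud in NAc (r 0.26).

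Id2 and Id4 ran in opposite directions in NAc, alongside the level of cortical neuron markers. Their r in NAc was -0.46 (n = 77, p = 5e-05, adjusted p = 0.0004), with rho -0.37 (p = 0.00073) and -0.35 without the 2 libraries farthest from the median of Id2. It was -0.25 in DLS (adjusted p = 0.0763), -0.40 in the DMS high class (adjusted p = 0.056) and 0.05 in the DMS low class (adjusted p = 0.849). Cortical neurons are not cells of the striatum, and of their markers 4 of 6 were listed in DLS, 3 of 6 in DMS and 4 of 6 in NAc, with none at 0 in any library. Their log2 summed level ranged from 7.83 to 14.0 in DLS, from 8.18 to 13 in DMS and from 8.34 to 14.3 in NAc. Its time means lay within 0.53 of each other in DLS, 0.74 in DMS and 1.48 in NAc, and none of the listed markers had a rhythm past the threshold. In NAc the mean of the sum was lowest at ZT2 (10.44) and highest at ZT10 (11.91). The part of this in the NAc course of Id4 was not tested. In NAc, Id2 had an r of 0.50 with this sum (p = 2e-05, adjusted p = 0.0004, rho 0.44, p = 8e-05, and 0.46 without the 2 farthest libraries). There Id4 had an r of -0.54 with it (p = 1e-05, adjusted p = 0.000267, rho -0.54, p = 1e-05, and -0.53 without the 2 farthest). In DLS (n = 70, permutation tests) r with the sum was 0.39 for Id2 (p = 0.00094, adjusted p = 0.00836, rho 0.36, p = 0.00233, and 0.30 without the 2 farthest). For Id4 it was -0.35 there (p = 0.00301, adjusted p = 0.0219, rho -0.31, p = 0.00949, and -0.33 without the 2 farthest), with an adjusted p of 0.0506 for rho. In the DMS low class it was 0.53 for Id2 (n = 37, p = 0.00064, adjusted p = 0.0064, rho 0.36, p = 0.0296, and 0.39 without the 2 farthest), with an adjusted p of 0.104 for rho. These 5 of 16 relations with the sum passed, and the share of all genes related to it was not computed. The other DMS relations of Id2 and Id4 did not: r was 0.02 for Id2 in the high class (n = 33) and -0.01 for Id4 in the low class. For Id4 in the high class r was -0.39 (adjusted p = 0.0786), and -0.05 without the 2 farthest (permutation tests). With sex, the fitted rhythm and this sum removed, the r between Id2 and Id4 in NAc was -0.27 (adjusted p = 0.0576, permutation test), against -0.46 with sex and rhythm alone removed. The part of cortical RNA in the levels of Id2 and Id4 was not tested further.

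**Figure D5:**
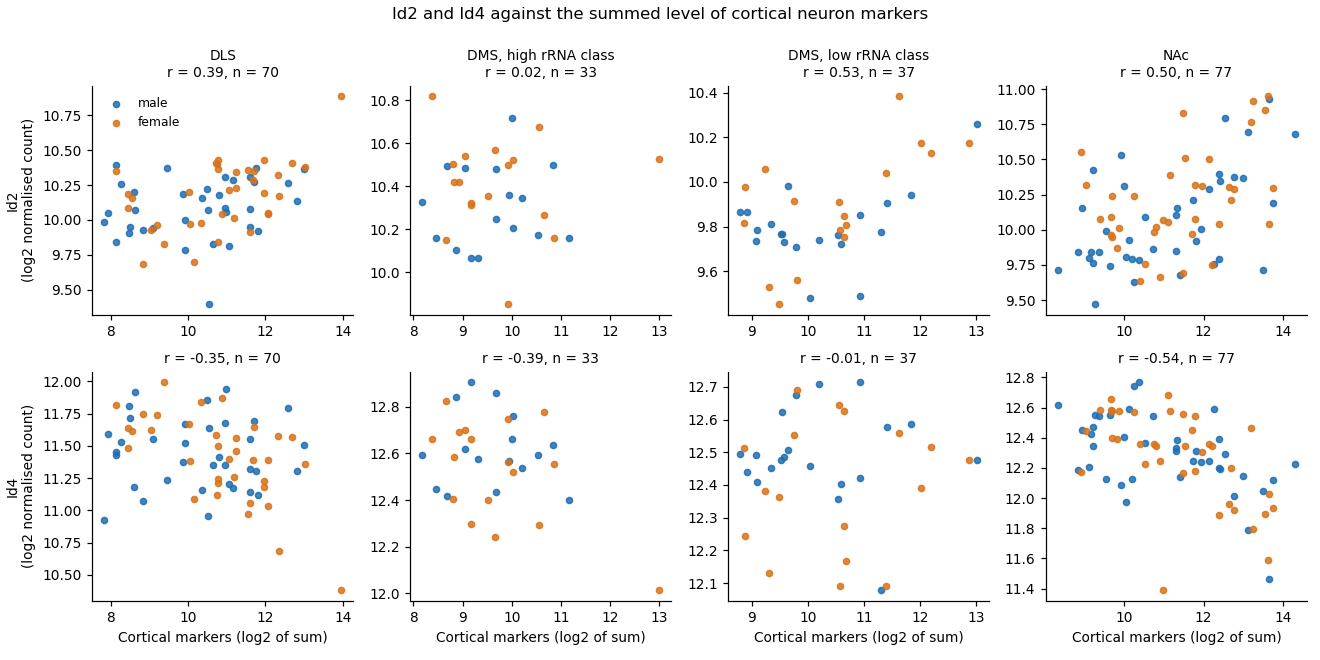
Log2 normalised count of Id2 (upper row) and Id4 (lower row) against the log2 summed level of cortical neuron markers (horizontal axes), 1 point per library, in DLS, both DMS classes and NAc. In NAc, Id2 is higher (r 0.50) and Id4 lower (r -0.54) in libraries with more cortical marker RNA.

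Each member was set against 5 measures of the library in the same 4 sets, which makes 80 relations, all by permutation tests with adjustment over the 80. The share of all genes related to these measures was not computed, so the counts are not read as a trait of the Id genes. The mitochondrial rRNA share was related to 8 of 16, all with a positive r. In the DMS high class (n = 33) both such relations rested on 2 libraries: without the 2 farthest, r was 0.13 in place of 0.46 for Id1 (adjusted p = 0.0363) and 0.26 in place of 0.49 for Id2 (adjusted p = 0.0251). Their rho of 0.30 and 0.33 did not pass (adjusted p = 0.216 and 0.147, permutation tests). For Id3, r was 0.53 in DLS (n = 70, p = 1e-05, adjusted p = 0.000267, rho 0.41, p = 0.00043, and 0.45 without the 2 farthest) and 0.47 in NAc (n = 77, p = 3e-05, adjusted p = 0.00048, rho 0.46, p = 2e-05, and 0.46 without the 2 farthest). For Id4 in the DMS low class it was 0.51 (n = 37, p = 0.00116, adjusted p = 0.00928, rho 0.55, p = 0.00056, and 0.41 without the 2 farthest). The time medians of this share ran from 40.7 to 42.5% in DLS and from 33.3 to 38.1% in NAc, and from 23.8 to 41.1% in DMS. With the share as a covariate, Id3 still had a rhythm in DLS (amplitude 0.16, adjusted p = 0.0331, limma) and DMS (0.17, adjusted p = 0.00972, limma), and Id4 in DMS (0.15, adjusted p = 6.25e-05, limma).

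In NAc, Id4 was higher and Id2 lower in libraries with more RNA of medium spiny neuron markers, the main neurons of the striatum: r was 0.65 for Id4 (n = 77, p = 1e-05, adjusted p = 0.000267, rho 0.52, p = 2e-05, and 0.53 without the 2 farthest) and -0.45 for Id2 (p = 5e-05, adjusted p = 0.000667, rho -0.38, p = 0.00063, and -0.43 without the 2 farthest; permutation tests). All 12 of 12 of these markers were listed in each region, and their log2 sum ranged from 17.3 to 18.0 in DLS, 17.6 to 18.3 in DMS and 16.4 to 17.6 in NAc. For Id4 the r did not pass in DLS or in either DMS class, and in DLS rho had the other sign (-0.32, adjusted p = 0.0485, permutation test). Id2 passed in DLS (n = 70, r -0.44, adjusted p = 0.0024, rho -0.32, and -0.29 without the 2 farthest, permutation test). It also passed in the DMS low class (n = 37, r -0.44, adjusted p = 0.0319, rho -0.21, and -0.32 without the 2 farthest, permutation test), but not by rho (adjusted p = 0.383). Id3 passed in DLS (n = 70, r -0.31, p = 0.0101, adjusted p = 0.0406, rho -0.31, p = 0.0104, and -0.38 without the 2 farthest, permutation test), with an adjusted p of 0.0522 for rho. The summed astrocyte markers (12 of 12 listed in each region, log2 sum 16.8 to 17.3 in DLS, 17.2 to 17.7 in DMS and 16.4 to 17.4 in NAc) were related to none of the members in 16 tests, with r from -0.31 to 0.24. The summed endothelial markers (12 of 12 listed, 13.2 to 13.6, 13.3 to 14.1 and 12.7 to 13.6 in the same order) passed in 2 of 16 tests, both of them Id3: r was 0.31 in DLS (adjusted p = 0.0367, rho 0.32, and 0.27 without the 2 farthest) and 0.42 in the DMS low class (adjusted p = 0.0396, rho 0.38, and 0.49 without the 2 farthest, permutation tests). By rho, Id3 with the endothelial markers passed in DLS (adjusted p = 0.0485, permutation test) and not in the DMS low class (0.0777). The time means of the summed medium spiny neuron markers lay within 0.17 of each other in every region, and those of the astrocyte markers within 0.13. The summed endothelial markers were highest at ZT14 in both dorsal regions, as Id3 was, and their part in its course was not tested. Their time mean in DLS was lowest at ZT2 (13.36) and highest at ZT14 (13.45), and in DMS lowest at ZT6 (13.51) and highest at ZT14 (13.73). In NAc it was lowest at ZT10 (13.16) and highest at ZT18 (13.33). The endothelial time means spanned only 0.10 in DLS. The DMS class was not removed from the time means of any marker sum. In DMS the endothelial means of ZT10 and ZT18 were both 13.70, close to that of ZT14. These times held most of the high-class libraries, so class and time can hardly be told apart in the DMS sums. The time means of the summed oligodendrocyte markers spanned 0.28 in DLS, 0.41 in DMS and 0.13 in NAc.

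The genes whose levels followed each member most closely were taken by the mean of the within-region Pearson r over the 3 regions, on values with sex and DMS class removed, among 11282 other genes in all tables. This is a description of 217 libraries that share depth and composition, with no test. Id3 was the gene most like Id1, with a mean r of 0.47, ahead of Atp6v0e, a part of the vacuolar proton pump (0.41), Patj, a scaffold of cell polarity (0.40), Ccdc171 (0.40) and Serp1, an endoplasmic reticulum protein (0.40). Seen from Id3, Id1 ranked 12 (0.47), behind Gm8172 (0.52), the ribosomal protein genes Rps7 (0.49), Rps3 (0.48) and Rpl22 (0.48), and the antioxidant enzyme gene Prdx6 (0.48). Id2 was most like Sept7, which encodes a septin of the cytoskeleton (0.68), and the membrane traffic genes Stx7 (0.62) and Rab6a (0.61), with Bzw1 (0.62) and Serpini1, which encodes a neuronal protease inhibitor (0.61). Id4 was most like Ano2, a calcium-activated chloride channel gene, with a mean r of 0.65, and next Kcna5, a voltage-gated potassium channel gene (0.58), Dhx32 (0.57), Musk, a receptor tyrosine kinase gene known from the neuromuscular junction (0.55), and Lmo2, whose protein joins complexes with bHLH factors in blood cells (0.53).

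The time of day was kept in the values that chose these companions, so their own daily courses are given as a description, with no test. Ano2 had an amplitude of 0.94 ± 0.05 in DLS, with the peak at 11.5 h, 0.66 ± 0.05 in DMS, with the peak at 11.1 h, and 0.37 ± 0.06 in NAc, with the peak at 10.6 h (SE). Kcna5 had 0.56 ± 0.05 in DLS, 0.31 ± 0.04 in DMS and 0.14 ± 0.05 in NAc (SE). The amplitudes of Dhx32 were 0.24, 0.19 and 0.09 in DLS, DMS and NAc, and those of Musk 0.27, 0.22 and 0.12. Lmo2 had 0.14 in DLS and 0.06 in both DMS and NAc, where its amplitude was below the median of all genes (0.07). The 5 genes most like Id2 had amplitudes of 0.02 to 0.12 in DLS, 0.00 to 0.14 in DMS and 0.01 to 0.21 in NAc.

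Of the 3 E protein genes, the partners of the Id proteins, Tcf3 alone passed, in DMS only, with an amplitude of 0.10 ± 0.03 and the peak at 6.86 h (SE, adjusted p = 0.0349, limma), where 25.2% of all genes passed. Tcf4 and Tcf12 had amplitudes of 0.04 to 0.06 in every region. The median amplitude of the 3 genes was 0.04 in DLS, 0.05 in DMS and 0.06 in NAc, against 0.07 over all genes in each region. These lists were set with earlier results of the data known, and no list was tested as a set.

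Of the BMP and TGF-beta ligands and their antagonists, 13 of 23 listed genes were measured in each region. In DLS, 5 of 13 passed, 3 with the peak in the dark and 2 in the light, beside 10.9 and 10.1% of all genes. In DMS 2 of 13 passed, 1 in the dark and 1 in the light (13.9 and 11.4% of all genes). In NAc 0 of 13 did (1.46 and 1.1% of all genes). Bmp7, a BMP ligand gene, had an amplitude of 0.24 ± 0.07 and a peak at 12.9 h in DLS (adjusted p = 0.0364) and 0.28 ± 0.07 with a peak at 11.1 h in DMS (adjusted p = 0.00326; SE, limma). In NAc it had 0.10 ± 0.11 (SE, adjusted p = 0.866, limma). Inhba, the gene of the activin A subunit, had 0.25 ± 0.05 in DLS and 0.34 ± 0.05 in DMS, with peaks at 0.13 and 23.9 h (SE, adjusted p = 0.000277 and 1.53e-06, limma). The activin-binding antagonist gene Fst passed in DLS (0.32 ± 0.06, peak 17.4 h, adjusted p = 4.11e-05, limma), as did the ligand gene Gdf11 (0.18 ± 0.06, peak 20.7 h, adjusted p = 0.0476, limma).

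Of the receptors and Smads of these pathways, 3 of 21 passed in DLS, 5 of 22 in DMS and 0 of 22 in NAc, beside 21, 25.2 and 2.56% of all genes, shares that the counts did not exceed. Tgfbr3, a co-receptor gene, passed in DLS (0.13 ± 0.04, peak 8.82 h, adjusted p = 0.0303, limma) and in DMS (0.14 ± 0.04, peak 10.7 h, adjusted p = 0.0187, limma). The TGF-beta receptor gene Tgfbr2 passed in DLS (0.20 ± 0.03, peak 23.6 h, adjusted p = 6.29e-06, limma), and so did Smad7, which encodes an inhibitor of both pathways (0.15 ± 0.03, peak 0.68 h, adjusted p = 0.00182, limma). Acvr2a, an activin receptor gene, passed in DMS alone (0.10 ± 0.02, peak 17 h, adjusted p = 0.00743, limma). With no class term 11 of 22 passed in DMS, beside 51.3% of all genes.

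Of the Hes and Hey genes, a family of bHLH factors, 1 of 3 measured genes passed in DLS, 1 of 5 in DMS and 0 of 5 in NAc, counts too small to set apart from the 21, 25.2 and 2.56% of all genes. Hes5 passed in DLS with an amplitude of 0.31 ± 0.06 and a peak at 11.4 h (SE, adjusted p = 0.000598, limma), and Hes6 in DMS with 0.25 ± 0.07 and a peak at 11.1 h (adjusted p = 0.0154, limma). Of the Notch pathway genes, 0 of 11 passed in DLS, 1 of 12 in DMS, which was Notch4 (0.22 ± 0.05, peak 17.9 h, adjusted p = 0.00134, limma), and 0 of 11 in NAc. Of the tissue-restricted bHLH factors, few were measured: 1 of 2 passed in DLS, which was the oligodendrocyte factor Olig2 (0.19 ± 0.05, peak 21.9 h, adjusted p = 0.0121, limma), 0 of 3 in DMS and 0 of 2 in NAc.

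Of the bHLH genes of the clock, 5 of 5 measured genes passed in DLS, 5 of 5 in DMS and 3 of 5 in NAc, beside 21, 25.2 and 2.56% of all genes. Bhlhe40, Bhlhe41 and Arntl had larger amplitudes in each region than any Id gene there, a difference that was not tested. Bhlhe40, a repressor that pairs through the same kind of domain, had 0.65 ± 0.04 in DLS, 0.57 ± 0.04 in DMS and 0.39 ± 0.04 in NAc, with peaks at 12.0, 12.4 and 12.4 h (SE, adjusted p = 6.44e-22, 7.94e-18 and 3.15e-09, limma). Arntl, the partner of Clock and Npas2, peaked on the other side of the day, at 23.5 h in DLS, 23.7 h in DMS and 23.9 h in NAc, with amplitudes of 0.51, 0.51 and 0.38. Bhlhe41 passed in every region, with amplitudes of 0.48 in DLS, 0.36 in DMS and 0.23 in NAc, and Npas2 in DLS and DMS, with 0.16 and 0.18.

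Of the endothelial markers, 8 of 12 passed in DLS, 9 of 12 in DMS and 5 of 12 in NAc, beside 21, 25.2 and 2.56% of all genes. Those that passed peaked on both sides of the day, with 4 of 8 in the dark in DLS, 5 of 9 in DMS and 4 of 5 in NAc. The tight junction gene Cldn5 peaked at 23, 23.7 and 22.4 h in DLS, DMS and NAc, and the glucose transporter gene Slc2a1 at 13.5, 13.1 and 14.4 h. Kdr and Ly6c1 passed in every region as well, with mean amplitudes over the regions of 0.30 and 0.20. Of the astrocyte markers 2 of 12 passed in each region, a share below that of all genes in DLS and DMS and above it in NAc. Both had the peak in the dark: Gjb6, a gap junction gene, with peaks at 19.4, 17.6 and 18.8 h in DLS, DMS and NAc, and the receptor gene Fgfr3, with peaks at 18.7, 17.6 and 16.7 h. The peaks of both lay later than those of the Id genes that passed. Of the medium spiny neuron markers 8 of 12 passed in DLS, 7 of 12 in DMS and 0 of 12 in NAc, beside the same shares of all genes. The part of cell make-up in the daily courses of the Id genes was not tested.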

How the data were processed

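Punches of 3 striatal regions gave 217 libraries of 93 mice. Per the deposited description, stranded total RNA was sequenced as paired reads of 75 bp, aligned with HISAT2 2.1.0 to GRCm38 and counted with HTSeq 0.10.0 in union mode. The authors deposited log2 values of counts that DESeq2 had normalised, 1 table per region. In DLS and DMS 100% of values were log2 of whole reads times a step of the library, plus 1 (tolerance 0.01). In NAc a median of 2.03% were, and 9 values lay below 0, so a further step was made that the sources used here do not give.

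No filter was added. Each region was fitted in limma 3.58.1 (R 4.3.3) over all genes, with a 24 h cosine and sine, sex and, in DMS, the rRNA class, a variance trend and Benjamini-Hochberg adjustment. Sex differences of level used time as 6 levels, sex differences of rhythm an interaction, and region differences a joint fit over 11283 genes blocked by animal (correlation 0.0363), which pairs regions since the labels name the animal. Males and females share numbers but not animals. The region differences of Id4 were planned as tests except DLS against NAc, and are given without any, since its choice used 1 or both regions of each pair. Correlations used 100000 permutations. Python 3.11.15, pandas 2.3.3 and numpy 2.4.6 made the tables. The fits were tested on simulated data.

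Members and gene lists were chosen with earlier results of these data known. Named were all members, from the lists described up to 4 genes past the threshold in most regions (ties by mean amplitude), and 5 genes most like each member. Medium spiny neuron markers are given as counts alone. Further genes of the described lists are given as counts, and Tcf4 and Tcf12 were added after their values were seen. No counts are given of the core clock and output, mural, oligodendrocyte, oligodendrocyte precursor, microglia, and choroid plexus and ependyma lists. Alternatives were other scalings, a minimum mean of 6, voom on recovered reads, other terms, a replicate block and leaving out each library. Depth sets the precision of Id1 and Id3 most, and since reads here carry no molecular identifiers, no counting intervals are given.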

Additional observations from a re-analysis of the deposited data

Results flagged for a closer look

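Of 144 groups of 1 gene, region, sex and time (5 to 7 libraries each), 8 held 1 library far from the others of its group by Dixon's criterion (5.56%), and chance alone picks about 1 in 20. Id4 in DLS was 10.38 in 1 female library of ZT2, whose next lowest was 11.06, and that library had a cortical marker sum of 14.0, the top of the DLS range. Id4 in DMS was 12.08 in 1 male library of ZT22, with the next lowest at 12.40. Id3 in DLS was 7.80 in 1 male library of ZT14, against 8.24 for the next lowest, and Id3 in DMS was 8.55 in 1 female library of ZT18, against 8.26 for the next highest. Id2 in DMS was 10.16 in 1 male library of ZT2, the rRNA class of which was high, against 9.87 for the next highest. Id2 in NAc was 10.76 in 1 female library of ZT10 (next highest 10.05, cortical marker sum 13.2), 10.83 in 1 female library of ZT22 (next highest 10.31, sum 11.5) and 10.34 in 1 male library of ZT14 (next highest 9.92, sum 12.4). Whether these values arose from the punch, the library or the animal was not tested.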

How the results depend on the processing

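Of the 4 rhythm calls, Id4 in DMS held under every alternative run. Id1 in DLS was lost when the share of mitochondrial rRNA was a covariate (amplitude 0.15, adjusted p = 0.0795), with libraries scaled to an equal sum (0.17, adjusted p = 0.0586) and by leaving out 1 of 4 libraries (amplitudes over all leave-one-out fits 0.14 to 0.19, adjusted p up to 0.0673): 1 female and 2 male libraries of ZT14 and 1 male library of ZT2. Id3 in DMS was lost in the low class alone (0.23, adjusted p = 0.0525, fewer libraries), and Id3 in DLS with time as 6 levels (0.21, as 0.5 of the range of the time means, adjusted p = 0.0596). Without the class term in DMS, Id1 (0.21, adjusted p = 0.00805) and Id2 (0.17, adjusted p = 0.0151) passed as well (limma). Calls among the 10 tests were 3 to 6 under the alternatives. Male and female libraries of the same number were not paired (median residual correlation 0.05, -0.17 and -0.13 in DLS, DMS and NAc). The fit with the number as a replicate block lost Id1 in DLS (amplitude 0.17, adjusted p = 0.0507, limma) and no other rhythm call. Of the sex and region differences tested, none passed under any alternative. With sex and rhythm removed, 9 of the 24 correlations between members passed, against 6. The alternative with the cortical marker sum removed was chosen after seeing the data. Other causes of these changes were not tested. The depth of NAc libraries is unknown, and how large a rhythm could be detected there was not measured.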
